A study of Mus musculus with 8 samples.

Results

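A set of 9 genes whose mRNA marks the formative epiblast was followed through 8 mouse RNA-sequencing libraries: Fgf5, Pou3f1, Otx2, Sox3, Wnt8a, Car4, Vrtn, Epha1 and Sema3e. They were picked by symbol, and all 9 were found among the 48440 genes of the deposited tables. Earlier results from these libraries, in particular the difference between epiblast cells and stem cells, had entered that choice, so this difference is described below with no p-value, and the counts past a threshold that go with it support nothing. The 4 groups held 2 libraries each. EpiC are epiblast cells made in vitro: stem cells were plated for 24 h, LIF and both inhibitors were withdrawn, and the cells were collected about 56 h later. No change of serum is mentioned for them. ESC are mouse embryonic stem cells kept in 15% fetal bovine serum with LIF and the MEK and GSK3 inhibitors PD0325901 and CHIR99021. MII are oocytes arrested at the second meiotic metaphase. GV are oocytes still in prophase arrest, with an intact germinal vesicle, held there with 2 µM milrinone. Females for both oocyte groups were primed with PMSG (5 units, given 48 h ahead of a further injection whose content the labels do not name). The MII label repeats the collection text of the GV label and gives no maturation step. Strain, age and cell line are not given in the sources used here, nor is it said that replicates came from separate animals or cultures. The p-values therefore measure only the spread between these libraries, which may be technical.

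Mouse pluripotency passes through a naive state, as in the preimplantation epiblast, and a formative state that follows implantation. On leaving the naive state cells lose factors such as Esrrb and Prdm14 and gain Fgf5, Otx2 and Pou3f1, while Pou5f1 (Oct4) stays on. Oocytes store maternal transcripts, many of which are translated or destroyed once meiosis resumes. In bulk RNA, fewer cells that express a gene and less RNA per cell cannot be told apart.

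Vrtn, which encodes vertnin, a DNA-binding protein known for its effect on vertebral number in pigs, was the one gene of the set that was abundant in oocytes as well as in EpiC, and the results on it turn on its start sites. The bases just upstream of its 3 annotated starts are therefore printed here, 5′ to 3′ on the plus strand of GRCm38.p6 (RefSeq promoter table). The upstream window of Fgf5, a gene with almost no reads in oocytes, is given beside them. The first start, of transcript Vrtn-202, follows chr12:84640769-84641018. The second, of Vrtn-203, follows chr12:84642305-84642554. The third, of Vrtn-201, follows chr12:84642848-84642895, and only those 48 bases are shown because the bases before them belong to the first exon of Vrtn-203. The Fgf5 window is chr5:98253934-98254183. Capitals mark CAGCTG, an E-box.
Vrtn-202: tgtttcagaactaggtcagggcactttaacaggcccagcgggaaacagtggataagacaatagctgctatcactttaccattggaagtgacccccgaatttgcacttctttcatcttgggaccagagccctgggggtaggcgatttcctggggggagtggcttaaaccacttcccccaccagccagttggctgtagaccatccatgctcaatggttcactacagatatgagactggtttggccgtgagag
Vrtn-203: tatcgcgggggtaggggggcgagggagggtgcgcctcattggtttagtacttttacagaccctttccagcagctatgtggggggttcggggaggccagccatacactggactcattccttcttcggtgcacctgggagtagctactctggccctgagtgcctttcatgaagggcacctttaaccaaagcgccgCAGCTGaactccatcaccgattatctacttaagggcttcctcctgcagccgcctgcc
Vrtn-201: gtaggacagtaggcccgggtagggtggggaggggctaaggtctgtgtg
Fgf5: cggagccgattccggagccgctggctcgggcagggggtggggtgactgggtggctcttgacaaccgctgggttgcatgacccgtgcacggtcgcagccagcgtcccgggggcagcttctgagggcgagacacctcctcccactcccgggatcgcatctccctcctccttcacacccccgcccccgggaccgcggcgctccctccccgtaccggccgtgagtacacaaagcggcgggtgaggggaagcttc
Of the 32851 windows of 250 bases in the table, 13.0% hold CAGCTG (a palindrome, so the same on both strands), and among the Vrtn starts the window of Vrtn-203 does. The 250 bases before Vrtn-202 hold 4 CpG dinucleotides and those before Vrtn-203 hold 10, against 24 before Fgf5 and a median of 6 over all windows. Of the 9 genes, 6 had an entry in this table, with 11 windows between them. Searched on both strands, TATAAA (12.4% of all windows) was in 1 of the 11, upstream of an Otx2 start. The OTX-type motif TAATCC (6.25% of all windows) was also in 1, upstream of another Otx2 start. The homeodomain motif TAATTG (7.17% of all windows) was upstream of the Otx2 starts at 48667644 and 48662734. ATGCAAAT, CATTGT and CACGTG were searched as well, and no window of these genes held them. These matches are letters in a window and describe no binding.

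Sequencing depth ran from 47463546 estimated counts in EpiC replicate 1 to 196788239 in MII replicate 2. The labels of the groups were checked against marker genes. The 8 oocyte markers summed to 15070 to 18966 TPM (a share of all transcripts in which each is divided by its length) in the 4 oocyte libraries and to 2.11 to 11.1 TPM in the 4 cell libraries. The 15 naive genes summed to 384 and 221 TPM in EpiC, against 2789 and 2097 TPM in ESC. Gm42418, a gene model that collects ribosomal RNA reads, took a larger share of the counts in replicate 2 of every group: 22.7% in EpiC, 14.7% in ESC, 3.03% in MII and 1.66% in GV. In replicate 1 the shares were 0.0255% in EpiC, 0.0306% in ESC, 0.151% in MII and 0.0220% in GV. The 10 granulosa and cumulus markers summed to 52.0 and 61.5 TPM in MII, against 31.7 and 148 TPM in GV. Cyp19a1 gave most of the MII sums, with 47.4 and 44.5 TPM, and measured 23.4 and 18.3 TPM in GV. Cyp11a1 measured 1.94 and 13.9 TPM in MII, and Inha 0.215 and 1.77 TPM. Inha made up most of the GV replicate 2 sum, with 105 TPM. The 9 fibroblast markers summed to between 2.32 and 9.23 TPM in every library.

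Summed over the 9 genes, levels were 379 and 259 TPM in EpiC, 8.23 and 5.26 TPM in ESC, 42.9 and 46.4 TPM in MII, and 97.8 and 120 TPM in GV. The oocyte sums were made up largely of Vrtn. All 9 genes were higher in both EpiC libraries than in both ESC libraries, with ratios of mean TPM between 10.3 for Otx2 and 726 for Vrtn. In counts scaled by TMM (a factor per library that levels the bulk of genes), all 9 lay past an adjusted p of 0.05 in edgeR's quasi-likelihood test, where 5.46% of 25045 genes were past it (2.63% of the 25045 higher in EpiC). The choice of genes drew on this contrast, so nothing is read from that count. It was 6 of 9 without ESC replicate 1 and 8 of 9 in several other settings, in which Otx2 was the gene that dropped out. The median log2 fold change of the 9 genes was 5.96, against 0.03 over all genes.

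**Figure D1:**
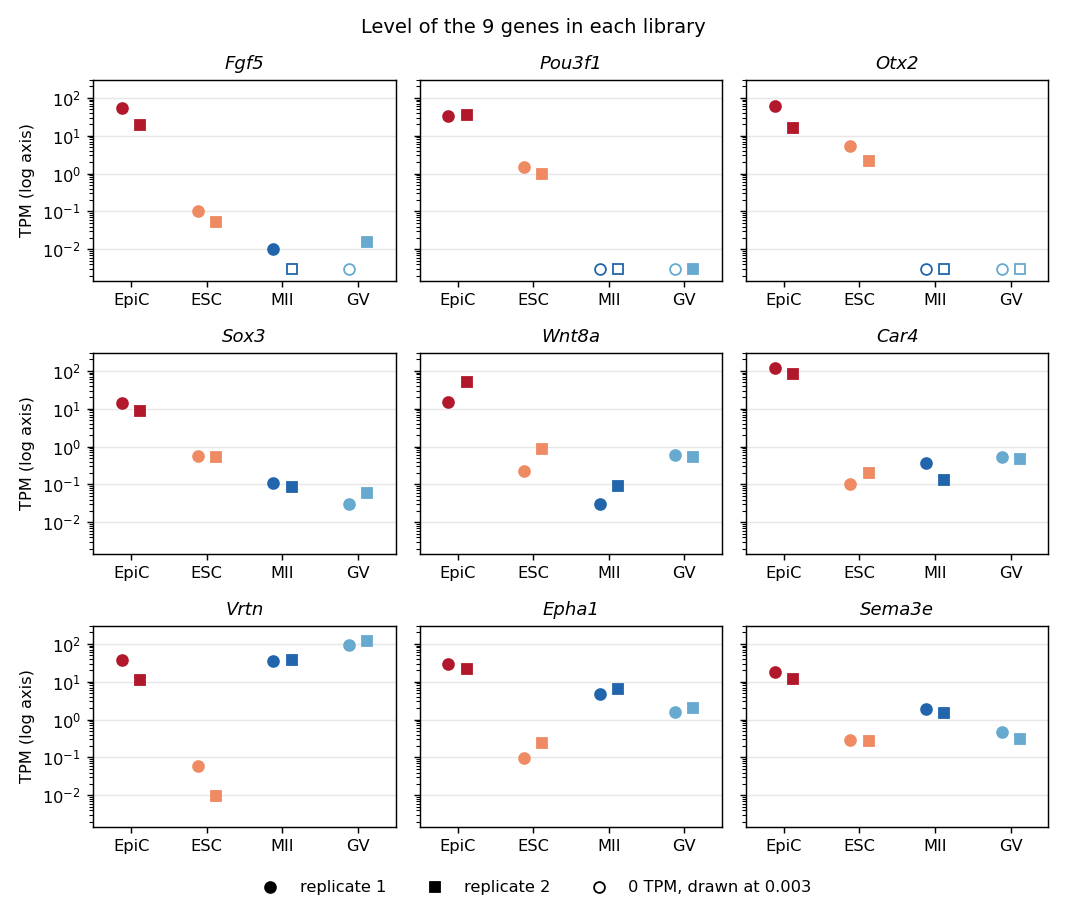
Level in TPM on a log axis (vertical) of each of the 9 genes in the EpiC, ESC, MII and GV groups (horizontal), 1 symbol per library, with open symbols for libraries at 0 TPM. EpiC lie above ESC for every gene, and Vrtn reaches 94.6 and 116 TPM in GV, its highest level.

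Among the transcription factors, Pou3f1 (Oct6, a POU-domain factor; ENSMUSG00000090125.3, GRCm38 chromosome 4, 124656807 to 124660655, 1 exon) had the most even levels between EpiC libraries. It measured 32.7 and 35.5 TPM in EpiC, 1.48 and 0.958 TPM in ESC, 0 and 0 TPM in MII, and 0 and 0.00195 TPM in GV. That last value is 1 estimated count. EpiC thus lay above ESC, and ESC above oocytes, in which the gene was at the limit of detection. The ratio of mean TPM was 27.9 between EpiC and ESC. Against MII, where no read was assigned, EpiC were at least 2598-fold higher (floor of 3 counts per library). A limit of this kind covers counting error only.

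Otx2, a homeodomain factor that acts early in the exit from the naive state (ENSMUSG00000021848.15, chromosome 14, 48657677 to 48673819), was the gene already present in ESC at the highest level of the set. It measured 60.6 and 15.6 TPM in EpiC, 5.33 and 2.10 TPM in ESC, and 0 TPM in all 4 oocyte libraries. The EpiC libraries differed from each other 3.89-fold, the widest gap among the 9 genes, and still did not overlap ESC. EpiC exceeded ESC by a log2 fold change of 3.34 ± 0.74 (approximate SE), the smallest of the set. ESC in turn exceeded GV at least 94.3-fold, against the floor of 3 counts per library. Transcript Otx2-001 gave 45.0% and 46.9% of the Otx2 TPM in EpiC, against 49.1% and 60.0% in ESC.

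Sox3, an X-linked single-exon SoxB1 factor (ENSMUSG00000045179.9, chromosome X, 60891366 to 60893430), measured 14.2 and 8.66 TPM in EpiC, 0.557 and 0.543 TPM in ESC, 0.111 and 0.0866 TPM in MII, and 0.0307 and 0.0601 TPM in GV. The 4 groups did not overlap and ran in that order. The oocyte levels rest on 9 and 19 estimated counts in MII, against 3 and 16 in GV. EpiC exceeded ESC by a log2 fold change of 4.37 ± 0.60.

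Of 7 paralogs of these factors (Otx1, Crx, Pou3f2, Pou3f3, Pou3f4, Sox1 and Sox2), 0 were called higher in EpiC than in ESC and 1 lower (adjusted p under 0.05, edgeR), where 2.63% of all genes were called higher and 2.83% lower. At an unadjusted p under 0.05 the counts were 0 higher and 2 lower, with DESeq2 0 and 2, and with limma on log2(TPM + 1) 1 and 2. Sox2, the SoxB1 partner of Pou5f1, measured 63.2 and 42.7 TPM in EpiC, against 208 and 160 TPM in ESC, and fell by 1.79 ± 0.38 on the log2 scale (adjusted p = 0.027). That call was lost in the fit without EpiC replicate 1, without EpiC replicate 2 and without either ESC library, so it rests on all 4. Pou3f2, a POU factor of the same class as Pou3f1, measured 0.726 and 0.220 TPM in EpiC, against 4.05 and 2.30 TPM in ESC, and did not pass (adjusted p = 0.11). Otx1 stayed under 1 TPM in every EpiC and ESC library.

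Of the secreted ligands, Fgf5 (ENSMUSG00000029337.2, chromosome 5, 98254184 to 98277030), a fibroblast growth factor and the usual marker of the early postimplantation epiblast, measured 55.3 and 18.9 TPM in EpiC, 0.10 and 0.0526 TPM in ESC, 0.0101 and 0 TPM in MII, and 0 and 0.0159 TPM in GV. EpiC stood far above every other library, ESC were next, and MII and GV overlapped at the limit of detection with at most 4.01 estimated counts. The ratio of mean TPM between EpiC and ESC was 486, and the log2 fold change was 8.78 ± 0.98. Transcript Fgf5-001 made up 87.2% and 69.1% of the Fgf5 TPM in EpiC, and Fgf5-002 the remaining 12.8% and 30.9%.

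Wnt8a, a Wnt ligand of the posterior epiblast (ENSMUSG00000012282.2, chromosome 18, 34542313 to 34548273), was, with Pou3f1, one of the genes higher in EpiC replicate 2 than in replicate 1, and by the wider gap. It measured 15.0 and 51.6 TPM in EpiC, 0.229 and 0.877 TPM in ESC, 0.0297 and 0.0928 TPM in MII, and 0.614 and 0.527 TPM in GV. EpiC were highest and MII lowest, while the GV libraries fell between the ESC libraries. EpiC exceeded ESC by a log2 fold change of 5.96 ± 0.99. Between ESC and GV it was −0.29 ± 0.82, and 0.35 without ESC replicate 1, so these groups were not ordered.

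Sema3e, a secreted semaphorin that signals through Plexin-D1 (ENSMUSG00000063531.7, chromosome 5, 14025276 to 14256689), measured 17.8 and 11.5 TPM in EpiC, 0.282 and 0.278 TPM in ESC, 1.90 and 1.47 TPM in MII, and 0.477 and 0.305 TPM in GV. The groups did not overlap, and the order was EpiC, MII, GV and ESC, with GV and ESC close together. EpiC exceeded ESC by a log2 fold change of 5.64 ± 0.47. The main transcripts of Sema3e in the tables were a coding one, Sema3e-001, and one with a retained intron, Sema3e-002. A further retained-intron transcript, Sema3e-004, held 3.21% in EpiC replicate 2 and 3.57% in ESC replicate 2. The coding transcript held 47.6% and 56.8% of the Sema3e TPM in EpiC, against 8.92% and 11.4% in MII. It held 16.2% and 11.3% in GV, and 37.7% and 96.4% in ESC. The ESC libraries thus disagreed widely, on 57.3 and 227 estimated counts for the gene. A test of transcript use within the gene (diffSpliceDGE of edgeR, added after these values were seen) did not call EpiC against MII (adjusted p = 0.394).

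The cell-surface proteins were Car4 and Epha1. Car4, a membrane-anchored carbonic anhydrase (ENSMUSG00000000805.18, chromosome 11, 84957786 to 84966044), was the most abundant of the 9 in EpiC. It measured 115 and 84.4 TPM in EpiC, 0.102 and 0.206 TPM in ESC, 0.369 and 0.127 TPM in MII, and 0.539 and 0.461 TPM in GV. No other group came near EpiC, and among the rest GV was highest while MII and ESC overlapped. The ratio of mean TPM between EpiC and ESC was 649, and the log2 fold change was 9.03 ± 0.73. Of 9 other carbonic anhydrases, Car2 and Car3 were called higher in EpiC than in ESC and 0 lower in edgeR (unadjusted 3 and 0, DESeq2 3 and 0, limma on log2(TPM + 1) 1 and 0). Over all genes, edgeR called 2.63% higher and 2.83% lower. Car2, a cytosolic enzyme, measured 128 and 63.3 TPM in EpiC, against 23.1 and 15.4 TPM in ESC (log2 difference 2.25 ± 0.43, adjusted p = 0.0188). Neither was called without EpiC replicate 1 or without either ESC library, where the count was 0.

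Epha1, a receptor tyrosine kinase for ephrin-A ligands (ENSMUSG00000029859.6, chromosome 6, 42358487 to 42373268), measured 29.9 and 21.4 TPM in EpiC, 0.0960 and 0.237 TPM in ESC, 4.82 and 6.25 TPM in MII, and 1.63 and 2.08 TPM in GV. The 4 groups did not overlap, and ESC were lowest. EpiC exceeded ESC by a log2 fold change of 7.26 ± 0.61. Epha1 shares 236 exonic bases with Zyx on the opposite strand. The libraries are stranded, but no source used here states the strand setting of the counting, so reads of that stretch may be exchanged. Zyx measured 75.0 and 58.8 TPM in EpiC, 10.2 and 9.05 TPM in ESC, 0.396 and 0.721 TPM in MII, and 3.77 and 7.34 TPM in GV. Zyx was thus lower in MII than in GV, while Epha1 was higher, and its part in the Epha1 values was not tested. Pou3f1 and Otx2 also share 330 and 168 exonic bases with gene models that are not listed in these tables.

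Between EpiC and ESC the receptors and ligands around Epha1 and Sema3e were called about as often as all genes (5.46%). Of 16 ephrin-A, Eph-A, semaphorin, neuropilin and plexin genes, 0 were called higher in EpiC and 1 lower in edgeR. At an unadjusted p under 0.05 it was 4 higher and 1 lower, DESeq2 called 4 higher and 1 lower, and limma on log2(TPM + 1) called 1 higher and 1 lower. The lower gene was Epha4, with 1.26 and 1.52 TPM in EpiC, against 24.7 and 19.2 TPM in ESC (log2 difference −3.99 ± 0.36, adjusted p = 0.00156). Plxnd1, the Sema3e receptor, measured 1.46 and 1.36 TPM in EpiC, against 2.16 and 1.24 TPM in ESC, and the groups overlapped.

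Vrtn (ENSMUSG00000071235.11, chromosome 12, 84641019 to 84651455) had the largest difference between EpiC and ESC and the highest oocyte level. It measured 38.3 and 11.2 TPM in EpiC, 0.0584 and 0.00973 TPM in ESC, 35.7 and 38.4 TPM in MII, and 94.6 and 116 TPM in GV. ESC were the exception: their values are 6 and 4 estimated counts, against 3847 and 3046 in EpiC. GV lay above the rest, and EpiC and MII overlapped. The ratio of mean TPM was 726 between EpiC and ESC, and GV exceeded ESC 3091-fold. Between EpiC and MII the scales gave different pictures. In TMM-scaled counts the log2 fold change was −2.17 ± 0.57, but on log2(TPM + 1) it was −0.80 and did not pass (limma).

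By the kallisto assignment, EpiC and oocytes used different annotated starts of Vrtn. Vrtn-202 begins at 84641019 with a first exon of 119 bases. Vrtn-203 begins 1536 bases downstream and Vrtn-201 another 341 bases further on. All 3 share the last exon, 84648477 to 84651455, which holds the whole coding sequence (84648478 to 84650697, 740 residues), so the annotated transcripts differ in untranslated bases and not in protein. Vrtn-202 held 84.6% and 80.2% of the Vrtn TPM in EpiC, 0.465% and 1.18% in MII, and 2.18% and 2.17% in GV. The first start was therefore the main one in EpiC and a minor one in all 4 oocyte libraries, with no overlap.

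As levels, the first start gave 32.4 and 8.95 TPM in EpiC, 0.166 and 0.452 TPM in MII, and 2.06 and 2.52 TPM in GV. The downstream starts together gave 5.91 and 2.21 TPM in EpiC, 35.5 and 37.9 TPM in MII, and 92.5 and 114 TPM in GV. Oocyte Vrtn was thus assigned almost entirely to the transcripts whose annotated starts follow the windows of Vrtn-203 and Vrtn-201 printed above. The assignment chooses among annotated transcripts only, and the start sites themselves were not tested. Within oocytes the assignment between these 2 varied with the library: Vrtn-203 held 56.5% and 36.2% in MII, against 50.1% and 29.2% in GV. Across 11953 genes with several transcripts, 30% were called for changed transcript use between EpiC and MII, and Vrtn was one of them (Simes adjusted p = 0.00684, diffSpliceDGE). The test was added after the shares above were seen, and the comparison uses EpiC libraries that entered the choice of genes. Its p-values for Vrtn are therefore descriptions and give the difference in starts no independent support. The use of Vrtn-202 relative to the gene was higher in EpiC by 4.59 on the log2 scale (adjusted p = 0.00614). It kept its direction when either MII library was left out, with 4.28 and 5.22, but no longer passed (adjusted p = 0.0862 without MII replicate 1 and 0.0684 without MII replicate 2). Between MII and GV, where 5.52% of genes were called, Vrtn was not called.

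**Figure D2:**
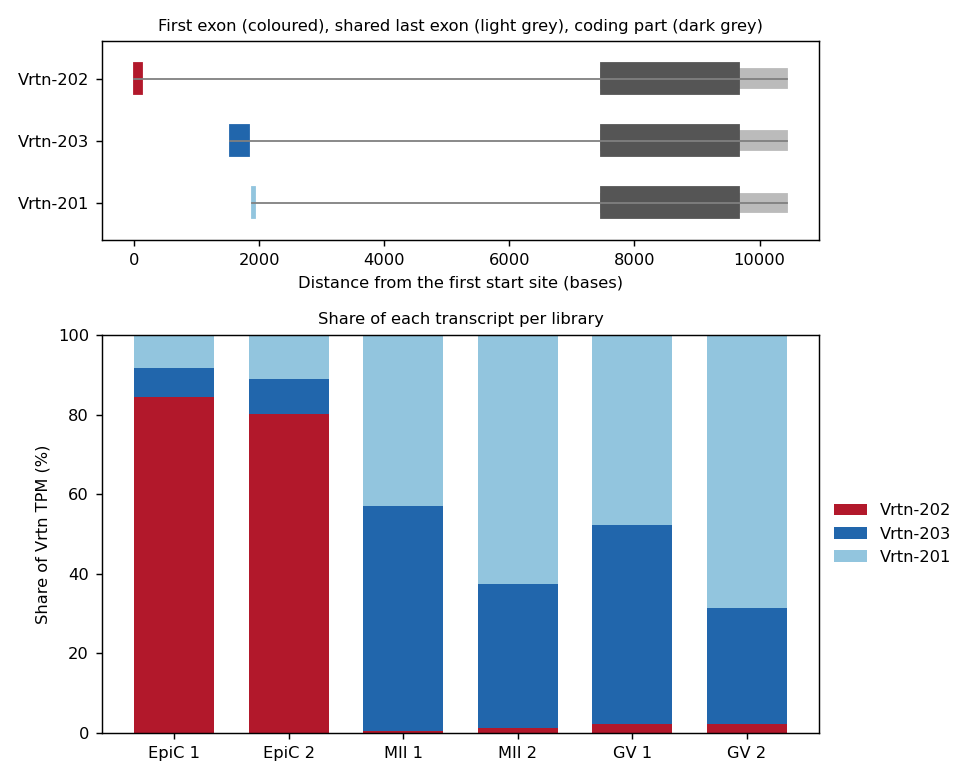
Upper panel: the 3 annotated Vrtn transcripts by distance in bases from the first start, with the middle exon of Vrtn-203 left out. Lower panel: share of the Vrtn TPM (percent) held by each transcript in each EpiC, MII and GV library. Vrtn-202 holds 84.6% and 80.2% in EpiC and at most 2.18% in oocytes.

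The MII against GV comparison asks what happens to these mRNAs when the oocyte matures, and its fold changes are not those of the EpiC against ESC difference that stood behind the choice of genes. EpiC and ESC libraries still entered its filter, scaling and estimate of spread; with the compared groups alone the 9 genes gave the same count of calls, 3. Of the 9 genes, 3 were called higher in MII and 0 lower in edgeR, where 39.6% of all genes were called, 17.4% higher and 22.2% lower. The counts were also 3 and 0 at an unadjusted p under 0.05 and with DESeq2, and 2 and 0 with limma on log2(TPM + 1). Otx2, Pou3f1 and Fgf5 had almost no oocyte reads and passed the filter through EpiC and ESC, so 6 of the 9 genes have a change to compare, and no median is given. In the main fit Sox3 also passed the filter only through EpiC and ESC, so its call is a description and supports nothing. The calls of Sema3e and Epha1 held in every alternative tried. Sema3e rose by 3.26 ± 0.42 on the log2 scale (adjusted p = 0.000611), and Epha1 rose by 2.73 ± 0.49 (adjusted p = 0.00213). On log2(TPM + 1) these were 0.95 (limma, adjusted p = 0.02) and 1.19 (adjusted p = 0.00862). The retained-intron transcript Sema3e-002 held 91.1% and 88.6% of the Sema3e TPM in MII, against 83.8% and 88.7% in GV, so most of the level behind that call was not assigned to the coding transcript.

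Sox3 was called higher by 2.15 ± 0.62 on the log2 scale (adjusted p = 0.0211, edgeR), on few counts and with the limit on its filtering given above. The call was lost on log2(TPM + 1), where the difference was 0.07, with no count filter (adjusted p = 0.0576), without MII replicate 1 (0.0646), without MII replicate 2 (0.0504) and without GV replicate 1 (0.106). Wnt8a pointed the other way, with a log2 fold change of −1.88 ± 0.92 that did not pass (adjusted p = 0.138). Its estimated counts were 2 and 17 in MII, against 50 and 117 in GV, and it passed with no count filter (adjusted p = 0.00913) and on log2(TPM + 0.1) (limma, adjusted p = 0.0483).

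For Vrtn the scale matters again. Mean TPM in MII was 0.352 of that in GV, with no overlap, yet in TMM-scaled counts the log2 fold change was −0.34 ± 0.55 (adjusted p = 0.661). On log2(TPM + 1) it was −1.48 and just missed the threshold (limma, adjusted p = 0.0594). Car4 had 16 and 14 estimated counts in MII, against 21 and 71 in GV, and its sign depended on the setting (0.14 ± 0.58 in TMM-scaled counts, adjusted p = 0.894, and −0.27 on log2(TPM + 1)). Fgf5, Pou3f1 and Otx2 had at most 4.01 estimated counts in any oocyte library and get no fold here. Changing from TMM to log2(TPM + 1) shifted the typical gene, by a median of −0.61 in log2 fold change, and changing to log2(TPM + 0.1) by −1.02. The TMM factors were 0.422 and 0.405 in MII, against 1.07 and 1.15 in GV, and a smaller factor raises the scaled counts. Of all calls between MII and GV, 43.9% were higher with TMM and 22.8% on log2(TPM + 1). Every direction between MII and GV is thus relative to the other mRNAs of the oocyte, and no amount per cell is given.

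**Figure D3:**
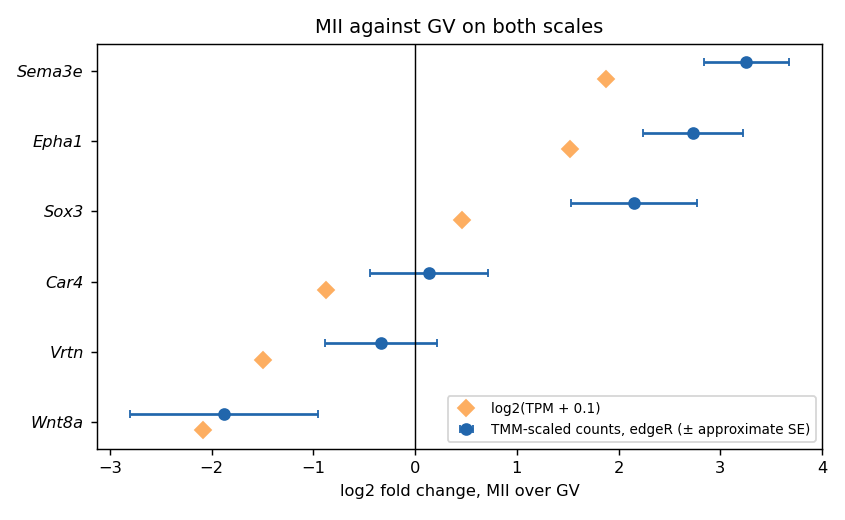
Log2 fold change, MII over GV (horizontal), of the 6 genes compared, from TMM-scaled counts with approximate SE (circles) and from log2(TPM + 0.1) (diamonds). Sox3, Wnt8a and Car4 rest on few counts in MII. Sema3e and Epha1 lie right of 0 on both scales, and Car4 lies at 0.14 on one and −0.88 on the other.

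Around Sema3e and Epha1, 9 of the 16 guidance genes were also called higher in MII than in GV, and 0 were called lower in edgeR (17.4% and 22.2% of all genes). The counts were 11 and 0 at an unadjusted p under 0.05 and 13 and 0 with DESeq2. Sema3d, another secreted semaphorin, rose by 2.94 ± 0.60 on the log2 scale (adjusted p = 0.0039), Epha7 by 2.79 ± 0.48 (0.00162) and Epha2 by 2.69 ± 0.48 (0.00209). Sema3d measured 7.36 and 4.48 TPM in MII, against 2.50 and 1.0 TPM in GV. Epha7 measured 1.92 and 1.85 TPM in MII, against 0.916 and 0.549 TPM in GV. Epha2 was low in both, with 0.442 and 0.608 TPM in MII, against 0.283 and 0.294 TPM in GV. The count fell to 3 higher and 1 lower on log2(TPM + 1), to 4 higher without MII replicate 2 and to 5 higher without GV replicate 1.

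EpiC against MII and ESC against GV share libraries with EpiC against ESC, and their values for the 9 genes are given side by side as descriptions. EpiC against MII placed 7 genes higher and 1, Vrtn, lower, with Epha1 not past the threshold at 0.72 ± 0.46 (68% of all genes passed, 39.6% higher and 28.5% lower). Epha1 did pass on log2(TPM + 1), where its log2 fold change was 2.02. Sema3e was higher in EpiC than in MII by 1.81 ± 0.40, Sox3 by 5.38 ± 0.65, Car4 by 7.19 ± 0.68 and Wnt8a by 7.56 ± 1.09. ESC against GV placed 3 genes higher, 3 lower and left 3 not past the threshold (59.6% of all genes passed, 31.3% higher and 28.3% lower). The lower ones were Vrtn at −12.36 ± 0.92, Epha1 at −3.81 ± 0.53 and Car4 at −1.71 ± 0.58. Of the higher ones, Sox3 stood at 3.16 ± 0.61.

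The EpiC libraries themselves differed. In TPM, 7 of the 9 genes were higher in replicate 1 and 2 in replicate 2. Otx2, Vrtn and Fgf5 were higher in replicate 1 by 3.89, 3.43 and 2.93 times, while Wnt8a was higher in replicate 2 by 3.43 times. TMM-scaled counts kept these gaps, with 47.2 and 15.7 CPM for Otx2 and 10.8 and 46.8 CPM for Wnt8a. The Gm42418 share differed between the same libraries, as given above, and its part in these gaps was not tested.

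Among 22 other genes reported to mark the formative state, 10 were called higher in EpiC than in ESC and 0 lower in edgeR (2.63% and 2.83% of all genes). The counts were 14 and 0 at an unadjusted p under 0.05, 13 and 0 with DESeq2, and 10 and 0 with limma on log2(TPM + 1). Their median log2 fold change was 2.20. This list, like the others, was chosen with earlier results of these data known, so it is no independent check. The count was 3 without ESC replicate 1 and 5 without ESC replicate 2. Fgf8, a ligand of the primitive streak, rose by 5.86 ± 1.19 on the log2 scale (adjusted p = 0.0239), Fgf15, a ligand also made by the postimplantation epiblast, by 5.67 ± 0.70 (0.00406), and Cldn6, a tight-junction claudin, by 4.92 ± 0.46 (0.00196). Cldn6 measured 159 and 94.7 TPM in EpiC, against 3.42 and 4.87 TPM in ESC. Fgf8 shared the uneven EpiC libraries of Fgf5, with 40.2 and 3.27 TPM in EpiC, against 0.177 and 0.353 TPM in ESC. Dnmt3b, a de novo DNA methyltransferase, had a log2 fold change of 2.86 ± 0.71 and did not pass (adjusted p = 0.0523), and Nodal had 0.38 ± 0.36 (adjusted p = 0.766).

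In the same comparison 11 of 15 naive genes were called lower and 0 higher in edgeR (unadjusted 13 and 1, DESeq2 11 and 0, limma on log2(TPM + 1) 12 and 0). Over all genes, edgeR called 2.83% lower and 2.63% higher. Prdm14, a naive-state repressor of FGF signalling, fell by 6.84 on the log2 scale (adjusted p = 0.00151), Tcl1 fell by 6.60 (0.00304) and Tfcp2l1 fell by 6.15 (0.000525). Pou5f1 measured 1117 and 690 TPM in EpiC, against 1421 and 914 TPM in ESC, and did not pass (adjusted p = 0.85). Markers of later lineages are given against 2.63% of all genes called higher. Of 8 tested mesendoderm genes 1 was called higher, T (Brachyury), with 9.11 and 8.36 TPM in EpiC, against 0.575 and 0.357 TPM in ESC (adjusted p = 0.0108). Of 7 tested neural genes 1 was called higher, Pax6 (adjusted p = 0.0275). Neither list had a call higher in EpiC without ESC replicate 1 or without ESC replicate 2, and the neural list had none without EpiC replicate 1.

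In the FGF pathway around Fgf5, 7 of 13 genes were called higher and 0 lower in edgeR (4 higher without ESC replicate 1 and 4 without ESC replicate 2). Over all genes, edgeR called 2.63% higher and 2.83% lower. In this pathway it was 8 higher and 1 lower at an unadjusted p under 0.05, 7 and 0 with DESeq2, and 8 and 0 with limma on log2(TPM + 1). Besides Fgf8 and Fgf15, which with Etv4 also stand among the formative genes above, these were the receptor Fgfr2, the feedback inhibitors Spry4, Dusp4 and Dusp6, and the ERK-responsive factor Etv4. Dusp6, an ERK phosphatase, measured 108 and 173 TPM in EpiC, against 2.68 and 1.51 TPM in ESC (log2 difference 6.15 ± 0.79, adjusted p = 0.00362). Fgfr2 measured 19.2 and 17.99 TPM in EpiC, against 2.17 and 2.17 TPM in ESC (3.23 ± 0.35, adjusted p = 0.00213). Fgf4, the ligand of naive cells, had a log2 fold change of −1.30 ± 0.39 and did not pass (adjusted p = 0.124). Fgfr1, Fgfr3, Fgfr4, Spry2 and Etv5 did not pass either. Etv5 measured 140 and 108 TPM in EpiC, against 193 and 155 TPM in ESC. EpiC differ from ESC by the removal of a MEK inhibitor as well as by state, and the design cannot tell these apart.

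Around Wnt8a, 4 of 14 Wnt pathway genes were called higher in EpiC and 0 lower in edgeR (2.63% and 2.83% of all genes). The higher ones were the ligand Wnt3, the receptors Fzd2 and Fzd7 and the feedback inhibitor Nkd1. Wnt3 measured 9.12 and 13.0 TPM in EpiC, against 0.182 and 0.470 TPM in ESC (log2 difference 5.10 ± 0.75, adjusted p = 0.0062). At an unadjusted p under 0.05 it was 5 higher and 2 lower, with DESeq2 5 and 1, and with limma on log2(TPM + 1) 4 and 2. The count of higher genes was 1 without EpiC replicate 1, 2 without EpiC replicate 2, and 1 without either ESC library. Axin2, a target of canonical Wnt signalling, had a log2 fold change of 0.02 ± 0.37 and did not pass (adjusted p = 1). ESC were kept with a GSK3 inhibitor, which activates that branch of the pathway, and EpiC were not.

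**Figure D4:**
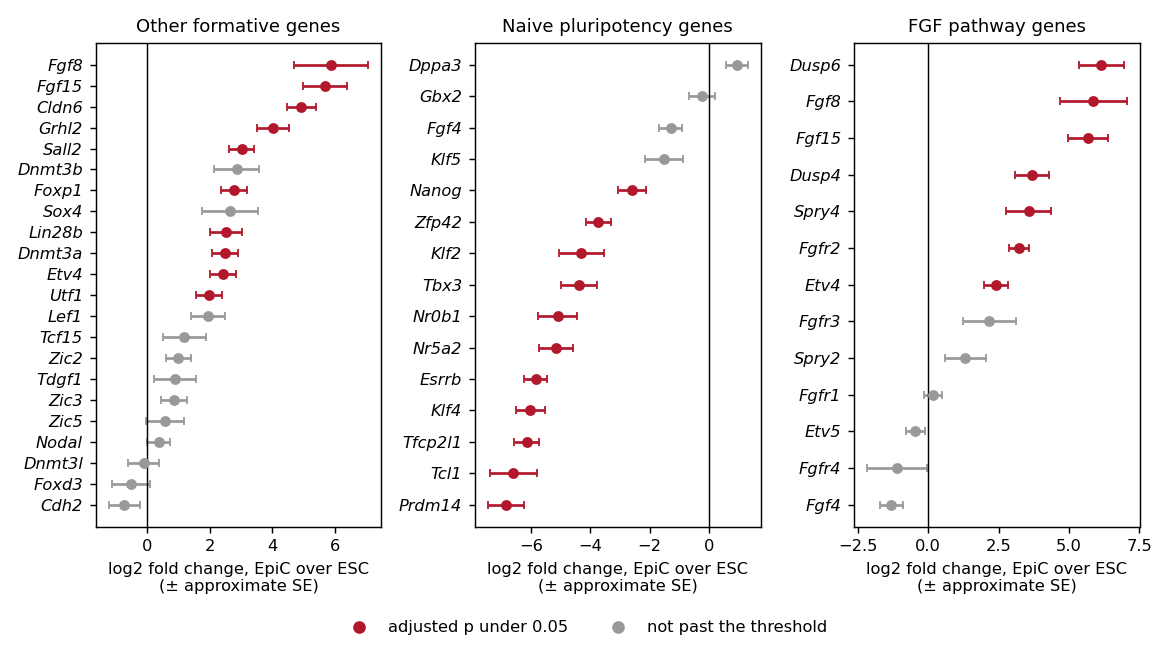
Log2 fold change, EpiC over ESC (horizontal, with approximate SE), of 22 other formative genes, 15 naive genes and 13 FGF pathway genes, coloured where the adjusted p was under 0.05. The calls right of 0 are 10 formative genes and 7 FGF pathway genes, with Fgf8, Fgf15 and Etv4 in both lists, and the calls left of 0 are 11 naive genes.

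Of the 22 other formative genes, 8 were called higher in MII than in GV and 4 lower, where 17.4% of all genes were called higher and 22.2% lower. On log2(TPM + 1) it was 1 higher and 4 lower. Lef1, a transcription factor of the Wnt pathway, measured 112 and 188 TPM in MII, against 12.4 and 27.3 TPM in GV (log2 fold change 4.22 ± 0.59, adjusted p = 0.000734). Grhl2, an epithelial factor, measured 0.148 and 0.240 TPM in MII, against 4.04 and 3.75 TPM in GV (−3.20 ± 0.51, adjusted p = 0.0012). In the FGF pathway 2 of 13 genes were called higher in MII and 2 lower, and in the Wnt pathway 5 of 14 higher and 1 lower. Fgfr2 measured 82.7 and 108 TPM in MII, against 33.8 and 26.6 TPM in GV (3.0 ± 0.34, adjusted p = 0.000526), and Lrp6, a Wnt co-receptor, 137 and 96.7 TPM in MII, against 15.8 and 7.21 TPM in GV (4.73 ± 0.47, adjusted p = 0.000518).

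The set was not uniform over the 8 libraries. The Pearson r of each gene with the mean profile of the 9 (log2(TPM + 1), in which each gene also takes part) was 0.9949 for Car4, 0.9891 for Fgf5 and 0.9733 for Sema3e, against 0.8943 for Epha1, 0.845 for Otx2 and 0.1823 for Vrtn. Among the 13348 protein-coding genes averaging 1 TPM or more, the 8 most like this mean profile were Rbbp8nl (r = 0.9975), Rasef, Slc40a1, Cxcl12, Mal2, Cldn7, Tmem54 and C430049E01Rik (r = 0.9884). These r describe 4 groups more than 8 separate points, because the pairs of libraries share their group. Cxcl12, a chemokine, measured 20.9 and 13.1 TPM in EpiC, 0.0739 and 0.0909 TPM in ESC, 0 and 0.00586 TPM in MII, and 0 and 0.0520 TPM in GV. Cldn7, a claudin, measured 92.1 and 36.8 TPM in EpiC, 1.97 and 1.47 TPM in ESC, 1.62 and 2.06 TPM in MII, and 1.22 and 2.09 TPM in GV. Both were picked by likeness to this profile, so their step into EpiC without the oocyte level of Vrtn follows largely from that choice.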

How the data were processed

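Total RNA from 8 libraries was sequenced as stranded paired-end libraries, per the labels' protocols. The authors deposited estimated counts per transcript made with kallisto 0.43 on mm10, per the submitters' processing notes. Beside the counts, the deposited files give TPM and an effective length for each of 117667 transcripts. The annotation release and kallisto's strand setting are not given in the sources used here.

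Estimated counts and TPM were summed per gene, and counts were rounded. After filterByExpr, 25045 genes were analysed in edgeR 4.0.16 (R 4.3.3) by a quasi-likelihood fit (group means, all 8 libraries), scaled by TMM and tested with glmQLFTest. Benjamini-Hochberg adjustment ran over all genes of a contrast, at 0.05. Each SE is an approximation: the size of the log2 fold change divided by the square root of F. Alternatives were other scalings, no filter, DESeq2 1.42.0, limma 3.58.1 on log2(TPM + 1) and log2(TPM + 0.1), a replicate block, the compared groups alone and each library left out. Positions are those of GENCODE M21 (GRCm38). Transcripts were assigned by likelihood, and no p or SE covers that error. The genes and lists were chosen with earlier results of these data known. From each list up to 3 called genes per direction with the largest change were to be named, and pathway and paralog lists in full. Cxcl12, Cldn7, Dnmt3b, Nodal, Pou5f1 and the examples with sequences were singled out after their values were seen.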

Additional observations from a re-analysis of the deposited data

How the results depend on the processing

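Of the recalculated log2 fold changes of the 9 genes, 490 kept direction and side of the threshold, 23 lost the call, 9 gained it and 6 turned. Those that turned belonged to Car4 and Wnt8a. Car4 between MII and GV was 0.14 ± 0.58 in the main fit. It was −0.073 with no count filter, −0.27 on log2(TPM + 1) and −0.88 on log2(TPM + 0.1). With a library left out it was between −0.72 (without MII replicate 1) and 0.80 (without MII replicate 2), with −0.13 without GV replicate 1. Wnt8a between ESC and GV was 0.35 without ESC replicate 1 and −1.68 without ESC replicate 2. The cause was not tested. The 12 other formative genes called between MII and GV became 5 on log2(TPM + 1) and 7 on log2(TPM + 0.1), where directions are read against another scale. With each library left out in turn, the 9 genes gave 6 to 9 calls for EpiC against ESC, 8 in every such fit for EpiC against MII, 5 to 7 for ESC against GV and 2 to 3 for MII against GV. The other formative genes gave 3 to 11 for EpiC against ESC and 8 to 13 for MII against GV. Over all genes, EpiC against ESC had 1367 calls, 2935 with DESeq2, 2580 with no count filter, 2825 and 2430 on the TPM scales, 833 with the compared groups alone and between 350 and 1187 with a library left out. A replicate block gave 9, 8, 7 and 4 calls among the 9 genes for the 4 comparisons in the order EpiC against ESC, EpiC against MII, ESC against GV and MII against GV, and 12 and 12 among the other formative genes; the call gained between MII and GV was Wnt8a (−2.31). Deviations of same-numbered libraries correlated at 0.758 between EpiC and ESC and at 0.456 between MII and GV, and at 0.0334 to 0.144 between cells and oocytes. Replicate 2 was the deeper library with the larger Gm42418 share in all 4 groups. The labels give no shared origin to a replicate number and there are 2 numbers per comparison, so whether they pair the libraries is not settled. With 2 libraries a group, leaving one out assumes that the lone library varies like the other groups. Few assigned reads limit the values of Fgf5, Pou3f1, Otx2, Sox3, Wnt8a and Car4 in oocytes and of Vrtn in ESC.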
